A study of Homo sapiens with 6 samples.

Results

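Of the 28868 probe sets in the value table of this array series, 1752 are paired by the platform annotation with more than 1 gene symbol. The rule that picks them uses that pairing alone and no measured value, but it was set with earlier results of these data known. Another 19309 probe sets carry 1 symbol and 7807 carry none. The arrays measured RNA of PC3 cells, an aggressive, androgen-negative human prostate cancer line, in 2 groups of 3 arrays. One group carried ectopic miR-34c and the other a scramble mimic as control. Dose and time of the treatment are not given in the sources used here. The sample titles and the series title name miR-34c, while the design text names miR-205, and groups follow the sample titles.

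A probe set is a group of short probes whose signals are summarised as 1 value for a transcript. Where 2 genes are near-identical copies, where a pseudogene keeps the sequence of its parent, where a small RNA lies inside a host gene, or where a read-through transcript joins neighbouring genes, the same probes match more than 1 gene. The value then belongs to the sum of what hybridised and cannot be divided between the genes. Members are therefore named here by all their symbols, written with a slash, and by the first 3 symbols where there are more than 6.

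Among the microRNA genes covered by shared probe sets, those on probe sets that fell were MIR29C, MIR29B2, MIR155 and MIRLET7B. Mature microRNAs pair with messenger RNAs mainly through the seed, bases 2 to 8, shown in capitals. The mature sequences are from RefSeq (GRCh38.p14), 5′ to 3′, and are shown because the array value is that of the locus while the seed defines the family of the product.
miR-29c-3p: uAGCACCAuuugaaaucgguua
miR-29b-3p: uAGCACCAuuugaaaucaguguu
miR-155-5p: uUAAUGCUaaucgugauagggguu
let-7b-5p: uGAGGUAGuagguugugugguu
The products of MIR29C and MIR29B2 share the seed AGCACCA. The other pair have seeds of their own, UAAUGCU and GAGGUAG.

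For the shared probe sets that rose most, the genes behind 1 probe set were alike in their promoters to very different degrees. Of the 2217 symbols on the members, 1285 have a promoter in the RefSeq table (GRCh38.p14), which runs from 250 bases before the start site to 50 after it. Over these windows, the promoters of H2AC18 and H2AC19 were identical at 99.3% of aligned positions, those of RABL2A and RABL2B at 98.0%, those of HLA-B and HLA-C at 88.5%, and those of GBP1 and GBP3 at 44.1%. The 160 bases before the start site are given below on the strand of the gene, so that a copied promoter can be told from an unlike one. Capitals mark the octamer ATTTGCAT (or its reverse complement ATGCAAAT), a motif known from histone H2B promoters, in the histone genes. In HLA-F and GBP1 they mark the core of the interferon-stimulated response element, GAAANNGAAA (or TTTCNNTTTC).
H2AC18, chr1:149842751-149842910, minus strand: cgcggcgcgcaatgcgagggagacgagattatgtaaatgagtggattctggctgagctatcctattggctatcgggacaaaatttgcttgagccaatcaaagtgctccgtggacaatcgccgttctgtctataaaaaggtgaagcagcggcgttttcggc
H2AC19, chr1:149850901-149851060, plus strand: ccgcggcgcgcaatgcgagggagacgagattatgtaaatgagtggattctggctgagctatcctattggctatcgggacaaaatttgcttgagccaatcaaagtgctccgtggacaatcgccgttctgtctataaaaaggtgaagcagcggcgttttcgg
H2BC18, chr1:149812371-149812530, minus strand: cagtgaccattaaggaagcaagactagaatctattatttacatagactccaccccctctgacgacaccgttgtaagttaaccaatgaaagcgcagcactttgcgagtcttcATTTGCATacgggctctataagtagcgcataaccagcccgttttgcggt
H2BC21, chr1:149886683-149886842, minus strand: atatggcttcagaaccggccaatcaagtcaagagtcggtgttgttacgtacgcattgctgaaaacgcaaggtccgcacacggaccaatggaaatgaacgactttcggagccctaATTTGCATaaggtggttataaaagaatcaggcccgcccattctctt
HLA-B, chr6:31357180-31357339, minus strand: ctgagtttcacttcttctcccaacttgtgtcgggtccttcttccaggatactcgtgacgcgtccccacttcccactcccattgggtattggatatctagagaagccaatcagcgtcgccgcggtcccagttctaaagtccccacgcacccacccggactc
HLA-C, chr6:31272093-31272252, minus strand: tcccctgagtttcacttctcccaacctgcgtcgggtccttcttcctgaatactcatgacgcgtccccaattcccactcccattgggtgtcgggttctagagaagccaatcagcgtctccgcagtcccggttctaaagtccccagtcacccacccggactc
HLA-F, chr6:29723274-29723433, plus strand: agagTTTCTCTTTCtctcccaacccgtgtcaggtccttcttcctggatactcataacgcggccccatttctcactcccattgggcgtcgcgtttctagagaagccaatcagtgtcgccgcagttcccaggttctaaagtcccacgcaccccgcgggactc
GBP1, chr1:89065209-89065368, minus strand: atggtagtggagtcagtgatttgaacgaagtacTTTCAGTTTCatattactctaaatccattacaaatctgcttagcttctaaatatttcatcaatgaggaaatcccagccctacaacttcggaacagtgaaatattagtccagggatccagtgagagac
RABL2A, chr2:113627106-113627265, plus strand: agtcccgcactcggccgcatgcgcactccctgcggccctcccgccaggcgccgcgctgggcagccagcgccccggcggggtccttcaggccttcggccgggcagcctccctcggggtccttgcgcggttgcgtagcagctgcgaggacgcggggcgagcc
RABL2B, chr22:50783637-50783796, minus strand: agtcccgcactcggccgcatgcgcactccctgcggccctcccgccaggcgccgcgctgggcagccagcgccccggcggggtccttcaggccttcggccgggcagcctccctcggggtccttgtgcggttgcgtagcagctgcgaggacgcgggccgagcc
The octamer starts at position -49 from the start site in H2BC18 and -46 in H2BC21, and these upstream windows are 51.2% identical. The octamer was not found in the promoters of H2AC18 and H2AC19. It was found in those of H2AC20 and H2AC21, which share the same H2A probe sets, at positions -197 and -208. The octamer of H2AC20 is the same stretch of DNA as that of H2BC21, its neighbour on the other strand. Of 27305 promoters in the table, 492 (1.80%) hold the octamer and 996 (3.65%) the response element core. The core starts at position -127 in GBP1, at -156 in HLA-F and 2 bases after the start site in GBP3, and these letters were not found in the HLA-B and HLA-C windows. Among the histone promoters searched, those of H3C10 and H3C13 also hold the core. No window given holds both motifs. Their presence describes the sequence and is not a measured binding site.

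Shared probe sets were called at a rate close to that of the array as a whole. By limma, with Benjamini-Hochberg adjustment over all 28868 probe sets and a threshold of 0.05, 179 of 1752 members (10.2%) changed, against 10% of all probe sets. Higher with miR-34c were 68 members (3.88%), where the background is 4.65%, and lower were 111 (6.34%), where it is 5.39%. The median log2 change of the members was -0.06, beside -0.05 over all probe sets. The split between directions moved with the scaling of the arrays: 38.0% of the members' calls were rises as deposited, 47.2% after each array was centred on its median and 54.7% after another quantile normalization. Single arrays mattered as well: 64 members were called when miR-34c replicate 2 was left out, 60 in the absence of replicate 3 of that group and 99 in the absence of scramble replicate 1. The falls were 25, 22 and 56 in those fits and 64 in the absence of scramble replicate 2, and the rises were 39, 38 and 43 in the first 3 of them. Across the settings and arrays tried, 37 members were called higher and 16 lower every time.

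Large changes were more often rises. Of the called members, 37 rose and 9 fell by at least 1.5-fold, against backgrounds of 1.89% and 1.45% of all probe sets. The falls of that size numbered 58 when miR-34c replicate 1 was left out and 15 in the absence of scramble replicate 1, and with any array left out the rises stayed between 31 and 40. On the log2 scale, 9 called members rose and 1 fell by at least 1, that is by at least 2-fold. All 179 called members had groups that did not overlap, which a call with 3 arrays per group makes likely, so it adds nothing to the calls. Of all 1752 members, called or not, 195 had such groups upward and 391 downward. Of all probe sets, 12% reached this state upward and 18.3% downward. Nothing in the labels tells if the 3 arrays per group are of separate cultures. The p-values therefore weigh differences against the spread among 6 arrays, which may be technical.

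**Figure D1:**
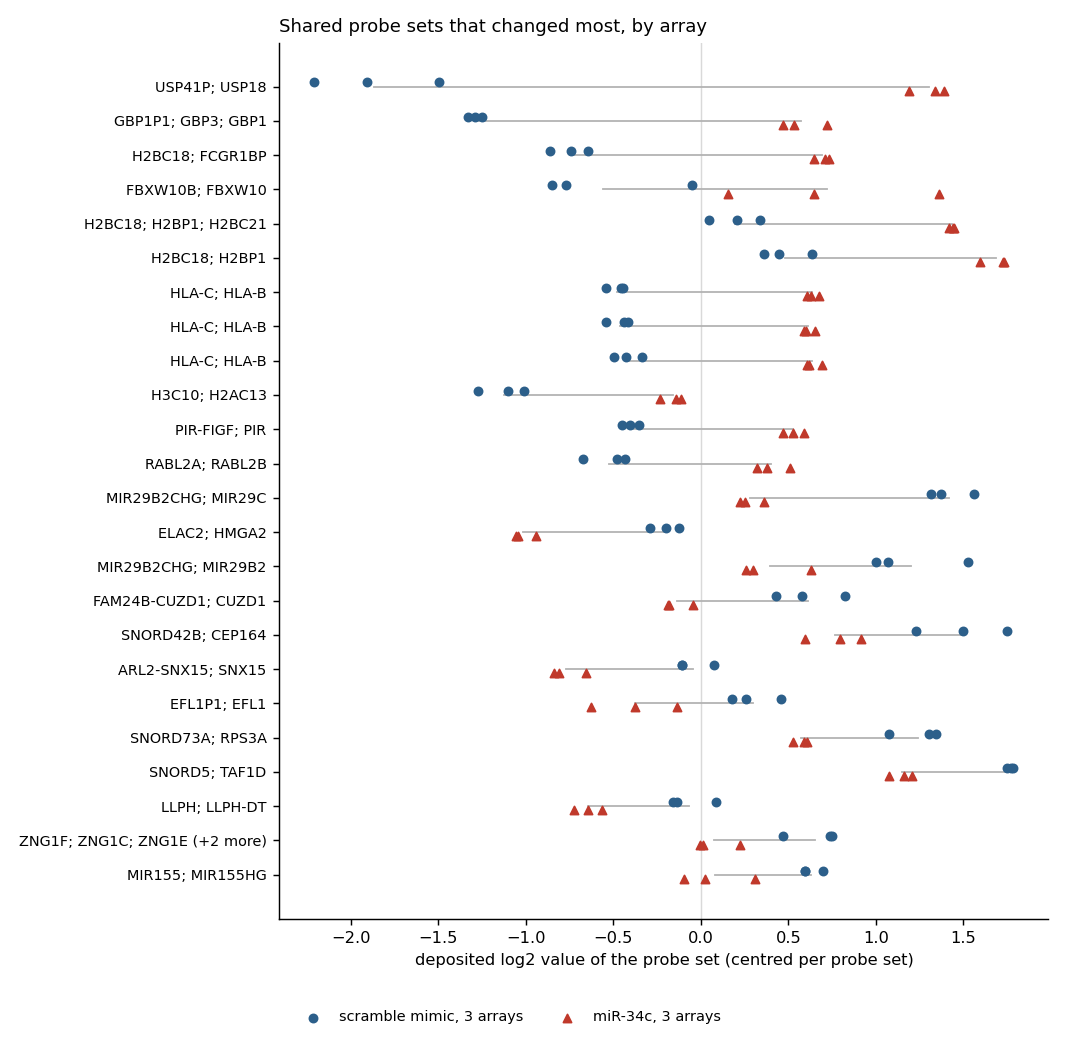
Deposited log2 values of the 12 called shared probe sets that rose most and the 12 that fell most, with 3 scramble arrays (circles) and 3 miR-34c arrays (triangles) on each line; the grey bar joins the group means, and probe sets of equal values are drawn once. The pair USP41P and USP18 had the widest gap, from a scramble mean of -1.87 to a miR-34c mean of 1.30, and in every line the groups stand apart.

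Interferon-responsive genes gave the largest rises. Interferon signalling through STAT and IRF factors induces antiviral and antigen-presentation genes, among them USP18, a protease that removes ISG15 from proteins and dampens the receptor, the guanylate-binding proteins, which act on intracellular pathogens, and the HLA class I heavy chains, which present peptides to T cells. Of 13 members that carry a symbol of the interferon-stimulated list, 9 rose (69.2%) and 1 fell (7.69%), against 4.65% and 5.39% of all probe sets. Their median log2 change was 0.84. Of the 9 rises, 6 were repeated sets of HLA-C/HLA-B and HLA-F/HLA-B, which are not independent. The list was chosen with earlier results of these data known.

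The probe set of USP41P/USP18, a pseudogene and its parent, stood at -2.21, -1.49 and -1.91 in the scramble arrays and at 1.34, 1.19 and 1.39 in the miR-34c arrays. Every miR-34c array was above every scramble array by a wide margin. The log2 change was 3.17 (SE 0.168), a 9.02-fold rise (limma adjusted p = 6.63e-05). The probe set of GBP1P1/GBP3/GBP1 read -1.29, -1.33 and -1.25 in the scramble arrays and 0.53, 0.47 and 0.72 with miR-34c. The 3 scramble values were nearly equal, and the rise was 3.64-fold (log2 change 1.86, SE 0.0881, adjusted p = 3.73e-05).

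HLA genes were covered by 21 shared probe sets, and class I and class II parted. The 6 class I members, 3 of HLA-C/HLA-B and 3 of HLA-F/HLA-B, all rose, and they remained called in every setting and with any array left out. The HLA-C/HLA-B sets rose by 1.06, 1.08 and 1.12 on the log2 scale and the HLA-F/HLA-B sets by 0.82, 0.84 and 0.87. For the HLA-C/HLA-B set that rose by 1.12 the scramble arrays read -0.44, -0.46 and -0.54 and the miR-34c arrays 0.61, 0.63 and 0.68. The sets of 1 symbol pair share sequence and are not independent measurements. None of the 15 class II members (DR and DQ chains, which professional antigen-presenting cells carry) was called, and their log2 changes ran from -0.15 to 0.14.

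The remaining interferon-list members changed less or were not called. The read-through locus TRIM6-TRIM34/TRIM6/TRIM34, of 2 E3 ubiquitin ligases, rose by 0.49 (SE 0.0992, adjusted p = 0.0210). The probe set CTCFL/SP100/HMGB1 fell by 0.32 (adjusted p = 0.0279), although the probe set of SP100 alone, a nuclear body protein, rose by 0.95. The 2 sets of LGALS9C/LGALS9B/LGALS9 and the set APOBEC3A_B/APOBEC3A were not called. For the last, a cytidine deaminase gene and a fusion allele of it, the log2 change was 0.00012 (SE 0.0843).

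Histone genes were the family with the most rises. Replication-dependent histone genes sit in clusters as near-identical copies, so a probe set can belong to more than 1 copy. They are transcribed in S phase and give messages that end in a stem-loop. Of 28 histone members, 16 rose (57.1%, against 4.65% of all probe sets), at a median log2 change of 0.35 over all 28, and 0 fell. All 13 members whose genes lie only on chromosome 1 were called, with log2 changes from 0.34 to 1.44, and 3 of 6 whose genes lie only on chromosome 6. The histone count stayed at 11 or more when any 1 array was left out.

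Among H2B members, H2BC18/FCGR1BP moved from -0.64, -0.74 and -0.86 in the scramble arrays to 0.64, 0.71 and 0.73 with miR-34c, a 2.72-fold rise (adjusted p = 9.13e-05). FCGR1BP is an Fc receptor pseudogene, and of the 3 probe sets of FCGR1CP/FCGR1BP/FCGR1A, without a histone symbol, 1 rose by 0.46 (adjusted p = 0.0350). The other two changed by 0.46 and 0.31 and were not called (adjusted p = 0.234 and 0.107). The members H2BC18/H2BP1/H2BC21 and H2BC18/H2BP1 rose by 1.24 and 1.20, and a second probe set of H2BC18/H2BP1 by 0.69. In the first of these the miR-34c arrays read 1.42, 1.44 and 1.45, and the scramble arrays 0.34, 0.05 and 0.20. The spread of the scramble arrays was the wider one.

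The H2A member H2AC19/H2AC21/H2AC20/H2AC18 was measured by 2 probe sets of equal values, at -0.12, -0.08 and -0.12 with the scramble mimic and 0.74, 0.78 and 0.78 with miR-34c. They rose 1.83-fold (adjusted p = 0.000463). Probe sets of H2AC20 alone and H2AC21 alone gave log2 changes of 0.03 and -0.06 and were not called. H2AC18 and H2AC19, whose near-identical promoters are given above, have no probe set of their own among those with 1 symbol. The 4 probe sets of H3C13/H3C15/H3C14 rose by 0.55 to 0.68, and H4C15/H4C14 by 0.34 (adjusted p = 0.0486) in 2 sets of equal values.

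On chromosome 6, H3C10/H2AC13 rose by 0.97 (SE 0.0915, adjusted p = 0.00103). The probe set of H3C10 alone rose by 1.36 and that of H2AC13 alone changed by 0.10 without a call. H3C11/H3C6 rose by 0.46 and H2BC15/H2AC15 by 0.35. Members not called included H3C4/H2AC7 (0.37, adjusted p = 0.0599), H2BC12/H2BC12L/H2BC17/H2BC5 (-0.02), both sets of H4C11/H4C12 and all 4 sets of H3P6/H3-3A. H3-3A encodes a replacement histone that is also made outside S phase, and its sets ran from -0.12 to -0.05.

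**Figure D2:**
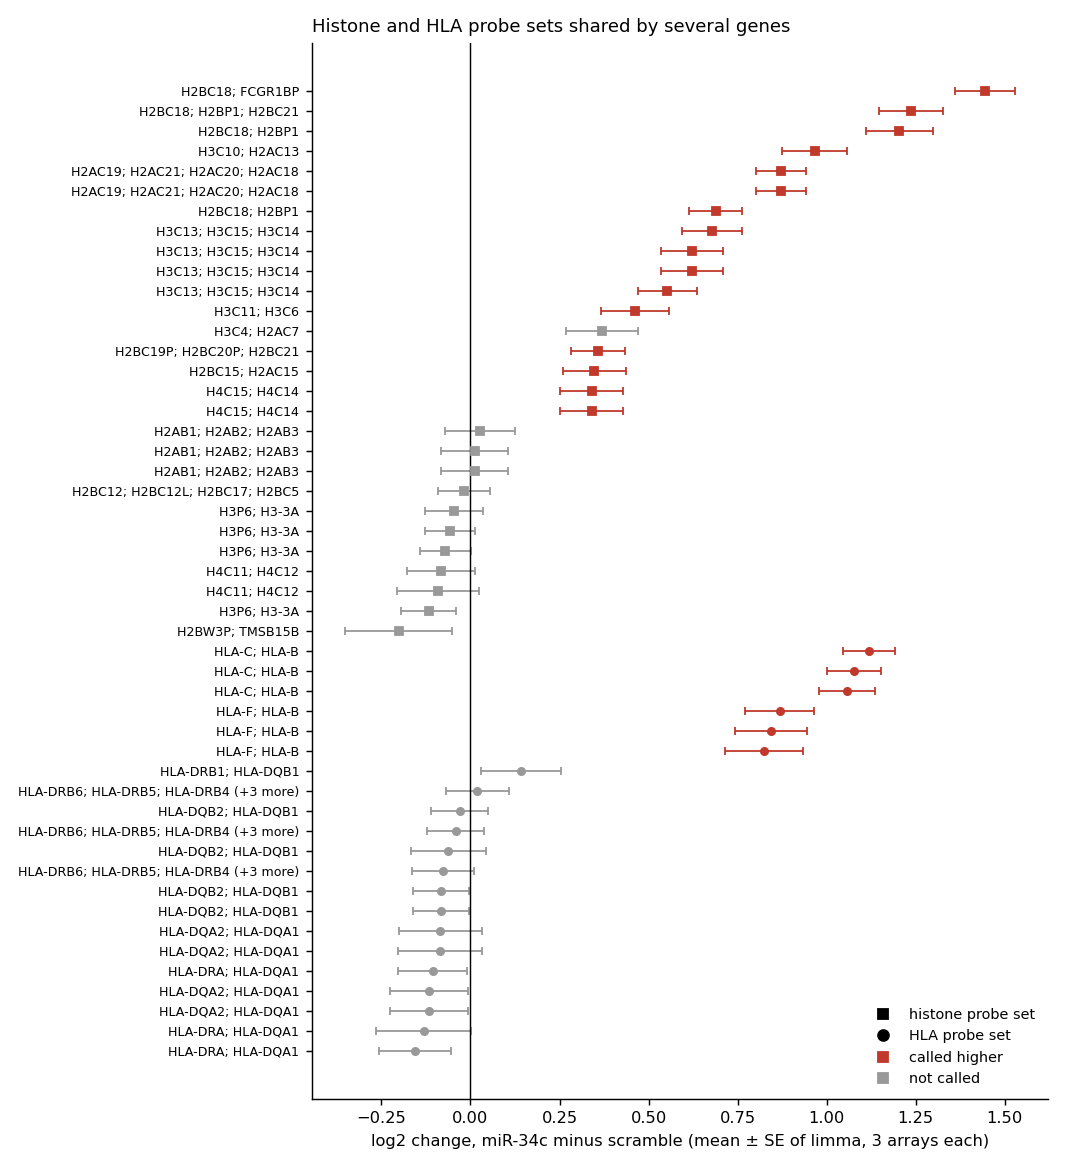
Log2 change (miR-34c minus scramble, with the limma standard error) of the 28 histone members (squares) and the 21 HLA members (circles), with called rises in red and members not called in grey. The 6 HLA class I sets lie between 0.82 and 1.12 and the 15 class II sets between -0.15 and 0.14, while histone sets spread from -0.20 to 1.44.

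Other rises came from gene pairs with no list in common. RABL2A and RABL2B, small GTPases of the cilium that lie on different chromosomes, were measured by 2 probe sets, which rose by 0.89 and 0.93. In the second, the scramble arrays read -0.43, -0.67 and -0.48 and the miR-34c arrays 0.51, 0.32 and 0.38. OCLN/OCLNP1, the tight-junction protein occludin and a pseudogene, rose by 0.87 (SE 0.134, adjusted p = 0.00734). HSD17B7P2/HSD17B7, a cholesterol-synthesis enzyme and its pseudogene, rose by 0.87 as well, with one scramble array at 0.35 and the others at -0.26 and -0.01. PIR-FIGF/PIR, a read-through locus of the iron-binding protein pirin, rose by 0.93 (adjusted p = 0.000493), and PIR-FIGF/VEGFD by 0.53. Both CCDC74B/CCDC74A sets rose, by 0.69 and 0.71.

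Some rises rested on few probe sets of a symbol set or on wide spreads. KRTAP1-5/KRTAP1-1/KRTAP1-3, hair keratin-associated proteins, was measured by 6 probe sets with 3 distinct sets of values. Only 1 of the 3 was called, a 1.76-fold rise, while the others gave 0.12 and 0.13. FBXW10B/FBXW10, of the F-box family, rose by 1.28 in 1 probe set with miR-34c arrays at 1.36, 0.16 and 0.65 (SE 0.315, adjusted p = 0.0418). The call was lost with array weights and in the absence of miR-34c replicate 1 or 3 or scramble replicate 2 or 3, where the adjusted p reached 0.127. A second set of the pair rose by 0.57, and the probe set of FBXW10B alone changed by -0.12 without a call.

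MicroRNA host loci gave the largest fall. The gene MIR29B2CHG hosts miR-29b-2 and miR-29c, whose seeds are the same. Its member with MIR29C read 1.37, 1.56 and 1.31 in the scramble arrays and 0.23, 0.25 and 0.36 with miR-34c. The groups stood far apart, and the level fell to 0.454 of the control (log2 change -1.14, SE 0.0915, adjusted p = 0.000478). Its member with MIR29B2 fell by 0.80 (adjusted p = 0.0197), with 1 array of each group standing above its other 2. MIR155/MIR155HG, the host of a microRNA of activated immune cells, fell by 0.55 (adjusted p = 0.0219), and MIRLET7B/MIRLET7BHG, a let-7 host, by 0.35 (adjusted p = 0.0373).

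Of 34 microRNA members, 4 fell (11.8%, against 5.39% of all probe sets) and 2 rose (5.88%, against 4.65%). The falls were 1 in the absence of miR-34c replicate 3, 2 in the absence of miR-34c replicate 2 or of any scramble array, and 4 in the absence of miR-34c replicate 1. Both rises were of MIR4435-2HG/CYTOR, long noncoding RNAs, at 0.39. MIRLET7A3/MIRLET7BHG was not called (0.02), nor was the probe set of MIRLET7BHG alone (-0.05). The host locus of the microRNA that was overexpressed, MIR34BHG/MIR34C, changed by -0.01 (SE 0.105, adjusted p = 0.977), and MIR205HG/MIR205 by -0.02 (adjusted p = 0.940). Both had overlapping groups.

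Small nucleolar RNAs, which guide chemical changes of ribosomal RNA and are released from introns of host genes, moved both ways. Of 76 members, 3 rose (3.95%, against 4.65% of all probe sets) and 7 fell (9.21%, against 5.39%). The falls ran from 2 to 5 with 1 array left out and were 3 with a variance trend or the replicate number as a block. SNHG1/SNORD31 rose by 0.77 (adjusted p = 0.0252), SNORD68/RPL13 by 0.66 (adjusted p = 0.0223) and the member of SNHG12 with 3 small RNAs by 0.66 (adjusted p = 0.00609). The sets of SNHG12 with 1 of SNORA16A, SNORA44 and SNORA61 each were not called. Another SNHG1 member, SNHG1/SNORD29, changed by 0.11 and was not called, and the probe set of RPL13 alone changed by -0.05.

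SNORD5/TAF1D fell by 0.62, from 1.77, 1.79 and 1.75 in the scramble arrays to 1.16, 1.08 and 1.20 with miR-34c (adjusted p = 0.00261). The scramble arrays were nearly equal. SNORD6 of the same host, a subunit of the RNA polymerase I selectivity factor, fell by 0.44, and TAF1D alone changed by -0.34 without a call (adjusted p = 0.0632). The sets of TAF1D with SNORA1, SNORA8 and SNORA40 were not called either. SNORD73A/RPS3A fell by 0.67, and 5 probe sets of RPS3A alone, a protein of the small ribosomal subunit, fell by 0.34 to 0.45. SNORD42B/CEP164 fell by 0.72, with CEP164 alone at 0.04. These genes lie on different chromosomes, so CEP164 is not the host of SNORD42B. The widest sharing of the array, SNORD115 copies with SNRPN, took 18 symbols on 3 probe sets of equal values and changed by -0.09 (adjusted p = 0.555).

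**Figure D3:**
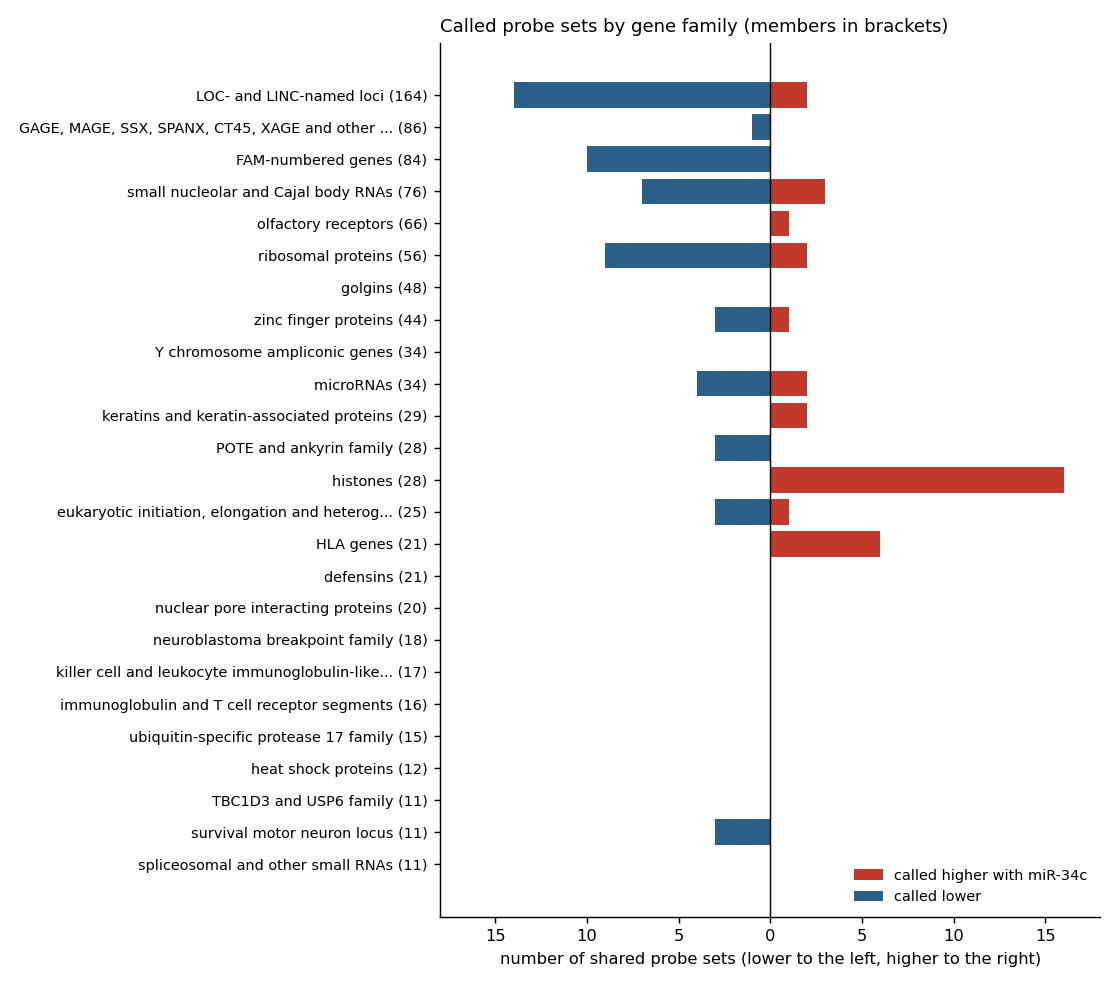
Number of shared probe sets called lower (left, blue) and higher (right, red) with miR-34c in each gene family of 10 or more members, with the number of members in brackets; a member can belong to more than 1 family. Histones (16 higher, 0 lower) and HLA genes (6 higher, 0 lower) stand to the right and ribosomal proteins (2 higher, 9 lower) mainly to the left, and several large families have no bar.

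Ribosomal protein members fell more often than they rose, 9 (16.1%) against 2 (3.57%) of 56, where the shares of all probe sets are 5.39% and 4.65%. The falls come from few loci: RPL21 with pseudogenes, RPL23A pseudogenes, SNORD73A/RPS3A and SNORD72/RPL37. The last 2 also count among the falls of small nucleolar RNAs, and SNORD68/RPL13 counts among the rises of both families. All 5 probe sets of RPL21 with its processed pseudogenes fell, by 0.37 to 0.42, and the probe set of RPL21P44 alone fell by 0.90. None of the 5 was called lower in the absence of miR-34c replicate 2 or 3 or scramble replicate 1. The RPL23AP87/RPL23AP82/RPL23AP7 pseudogenes fell by 0.43 in 2 sets of equal values, another set of these symbols changed by -0.24 without a call, and RPL23AP7/RPL23A changed by -0.11 without a call. The ribosomal falls came to 1 when either miR-34c replicate 2 or 3 was left out, to 3 in the absence of scramble replicate 1, and to 5 in the absence of scramble replicate 2 or with a variance trend.

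Segmentally duplicated loci supplied many of the falls. Such loci arose by copying of long stretches of DNA and hold gene copies with few differences, so 1 locus group fills many probe sets. Grouped by shared symbols, the 1752 members form 694 groups, and the 111 falls belong to 55 of them while the 68 rises belong to 47. The loci named next were picked after their values were seen, for having several members called one way.

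The largest was the AGAP, BMS1 and FAM25 group, of ArfGAP-domain genes and neighbours. Of its 16 members 13 fell, with a median log2 change of -0.38. Over the 16, the medians of the miR-34c arrays were 0.27, 0.27 and 0.24 and those of the scramble arrays 0.74, 0.64 and 0.65. The ZNG1 genes, zinc-binding GTPase metallochaperones on different chromosomes, had 7 members, which all fell, by 0.39 to 0.58. Their array medians were 0.13, 0.02 and -0.01 with miR-34c and 0.41, 0.54 and 0.47 with the scramble mimic. All 4 members of the AQP7 group, an aquaglyceroporin with its copies, fell by 0.46 to 0.53, whereas the probe set of AQP7 alone changed by 0.23 without a call. These counts of calls leaned on single arrays: in the absence of miR-34c replicate 2 they were 3 for AGAP, 0 for ZNG1 and 1 for AQP7, in the absence of replicate 3 of that group 3, 0 and 3, in the absence of scramble replicate 1 4, 5 and 3, and in the absence of scramble replicate 2 11, 4 and 4. With a variance trend 7 AGAP members were called.

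GUSB, the lysosomal beta-glucuronidase, with its many pseudogenes had 14 members, of which 8 fell. In all 14 the miR-34c arrays were below the scramble arrays without overlap, a state that 18.3% of all probe sets reached. The 14 sets share symbols, so they are not independent. None of the 14 was called lower with the replicate number as a block or in the absence of miR-34c replicate 2 or 3. The falls were 2 in the absence of miR-34c replicate 1 or scramble replicate 1, 4 and 1 in the absence of scramble replicates 2 and 3, and 2 with a variance trend or another quantile normalization. The probe sets of GUSB alone and GUSBP11 alone changed by 0.15 and 0.10 and were not called. In the LRRC37A group 4 of 7 members fell, in the FOXD4 group of forkhead genes 3 of 7, in the ANKRD36 group 3 of 4 and in the FAM27E group 3 of 3. The FAM27E calls remained 3 in every setting and with any array left out. The LRRC37A falls came to 0 in the absence of any miR-34c array or of scramble replicate 1, and to 1 in the absence of scramble replicate 3. The FOXD4 falls came to 0 in the absence of any miR-34c array or of scramble replicate 2 or 3, and the ANKRD36 calls to 1 in the absence of miR-34c replicate 3. Their called members lay between -0.29 and -0.54. Falls of this size are small next to the histone and HLA rises, and none of these locus groups had a member that fell by 1.5-fold. The members of 1 group share probes or near-identical sequence, so their agreement is not replication.

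**Figure D4:**
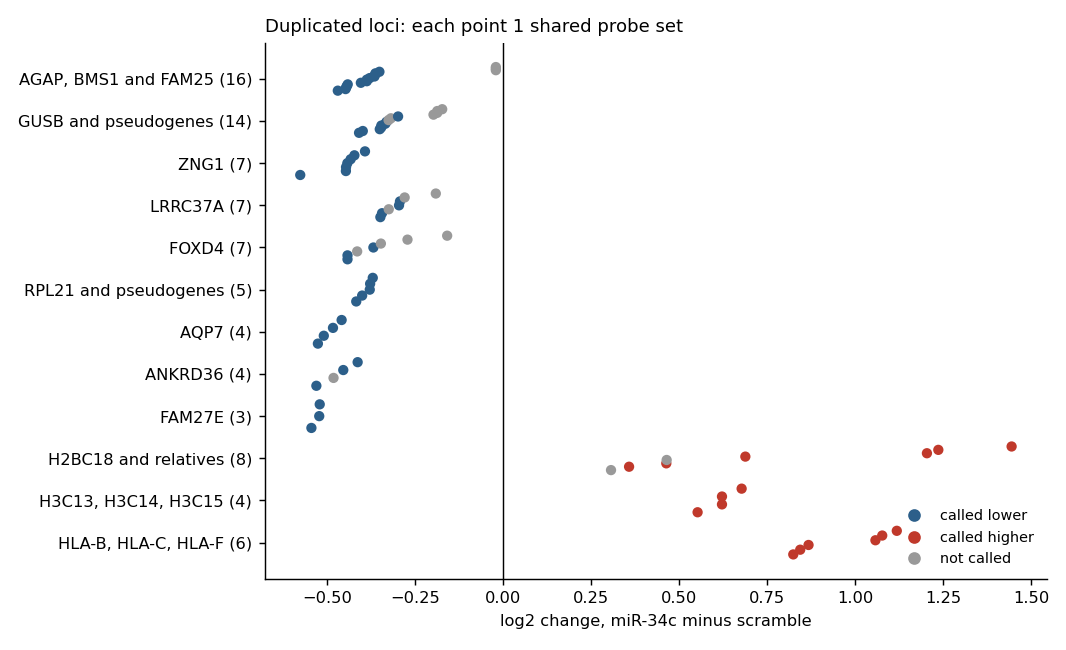
Log2 change of each shared probe set in 12 groups linked by shared symbols, with the number of members in brackets, blue for called lower, red for called higher and grey for not called. The 9 groups of falls lie between -0.58 and -0.02, and the 3 groups of rises between 0.31 and 1.44.

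Calls in either direction were spread unevenly over the number of symbols. Members with 2 symbols had 51 rises (5.69%) and 48 falls (5.36%) among 896, near the 4.65% and 5.39% of all probe sets. Those with 5 or more symbols had no rise. Falls numbered 16 of 120 with 5 symbols (13.3%) and 17 of 195 with 6 to 9 (8.72%). Those with 5 symbols were 7 ZNG1, 4 LRRC37A, 3 FOXD4 and 2 BMS1 sets. Those with 6 to 9 included 10 AGAP sets and several of the GUSB group. Sets of 1 group are not independent. In the absence of miR-34c replicate 2 or 3, no ZNG1, LRRC37A or FOXD4 set was called lower. With 10 to 18 symbols they numbered 4 of 113 (3.54%). Calls were also spread unevenly over distance between the genes. Where the genes lie on different chromosomes, 7 members rose (1.62%) and 46 fell (10.7%) of 431. Repeated sets of ZNG1, FOXD4, AQP7 and RPL21 were among these falls, so the 46 are not separate loci. Where they lie within 1 Mb without overlap, 22 rose (4.60%) and 13 fell (2.72%) of 478. The part of distance or of the number of symbols in these counts was not tested.

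By the kind of sharing, pseudogenes with another gene made up 598 members with 14 rises (2.34%) and 48 falls (8.03%). The shares of all probe sets are 4.65% and 5.39%. Related protein-coding genes made up 480 members, with 24 rises (5%) and 17 falls (3.54%), and of those rises 18 were at least 1.5-fold. Long noncoding loci had 4 rises (3.01%) and 12 falls (9.02%) of 133. Small RNA genes with a host or another gene had 3 (3.90%) and 9 (11.7%) of 77. Copies of a small RNA gene had 2 falls of 41 (4.88%), both of SNORD109B/SNORD109A with equal values. Leaving out miR-34c replicate 2 or 3 took the pseudogene falls to 8 or 9, and leaving out scramble replicate 1 or 2 took them to 25 or 32. With the replicate number as a block they numbered 26. The falls of related protein-coding genes went to 0 in the absence of miR-34c replicate 2 or 3 and to 52 in the absence of miR-34c replicate 1. With any 1 array left out, the long noncoding rises ran from 0 to 5 and falls from 4 to 15, and the rises of small RNA genes with a host ran from 1 to 6 and falls from 4 to 7. The 2 falls among copies of a small RNA gene were called in the absence of miR-34c replicate 1 and lost in the absence of any other array.

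Read-through loci, where 1 transcript runs through neighbouring genes, had 13 rises (4.89%) and 16 falls (6.0%) among 266. These shares are near the 4.65% and 5.39% of all probe sets. With 1 array left out the rises ran from 5 to 12 and the falls from 3 to 10: in the absence of miR-34c replicates 2 and 3 and scramble replicate 1, the rises were 5, 6 and 6 and the falls 4, 3 and 8. The largest falls were FAM24B-CUZD1/CUZD1, at -0.75 (adjusted p = 0.00643), and ARL2-SNX15/SNX15, at -0.72 (adjusted p = 0.00325), the latter of a sorting nexin. For ARL2-SNX15/SNX15 the scramble arrays read 0.08, -0.11 and -0.11 and the miR-34c arrays -0.81, -0.84 and -0.66. INMT-MINDY4/MINDY4 rose by 0.62 (adjusted p = 0.00284) and TM4SF19-DYNLT2B/TM4SF19 by 0.56 (adjusted p = 0.00494). At ZNF625-ZNF20 the set shared with ZNF20 rose by 0.66, while the set of the read-through symbol alone changed by -0.27 without a call.

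Protein-coding genes with unlike symbols made up 157 members. They had 10 rises (6.37%, against 4.65% of all probe sets) and 7 falls (4.46%, against 5.39%). Pairs on different chromosomes that share no name were among them. The rises ran from 4 to 9 and the falls from 2 to 9 with 1 array left out. PPFIBP1/ALK, MRTFA/RBM15 and RARA/BCOR, known as fusion partners in tumours, fell by 0.35, 0.33 and 0.34. RBM15 alone and BCOR alone changed by -0.18 and 0.08 without a call. In the same class, ETV6/INO80D rose by 0.49, and EBF1/PDGFRB changed by -0.03 without a call. The ETV6/INO80D rise was called in every setting and with any array left out, and none of the named falls was. ELAC2/HMGA2, a transfer RNA processing enzyme and a chromatin protein of embryonic and tumour cells, fell most. Its scramble arrays read -0.29, -0.12 and -0.20 and its miR-34c arrays -1.05, -0.94 and -1.04 (log2 change -0.81, adjusted p = 0.00131). The probe set of ELAC2 alone changed by -0.17 without a call. Overlapping genes also fell in this class: KCNRG/TRIM13, a potassium channel regulator inside an E3 ligase gene, fell by 0.55. PGBD3/ERCC6, a transposase fused to a DNA repair gene, rose 1.51-fold (adjusted p = 0.00293).

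Several large families gave few calls or none. None of 48 golgin members, 21 defensin members, 20 members of the nuclear pore interacting protein family, 18 of the neuroblastoma breakpoint family or 17 of the killer cell and leukocyte receptor families was called. Of all probe sets, 10% were called. Unadjusted p under 0.05 was reached by 0, 3, 0, 13 and 1 of them in that order by limma, beside 7095 of all 28868 probe sets. Members of 1 family share sequence and are not independent. Of 86 cancer-testis antigen members, 1 fell (1.16%, against 5.39% of all probe sets), a CT45A set at -0.30 (adjusted p = 0.0410).

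Olfactory receptors, the odorant receptors of the nose, had 66 members with wide spreads within groups (median SD 0.322, against 0.101 over all members). One rose (1.52%, against 4.65% of all probe sets) and none fell (against 5.39%), yet their median log2 change was -0.28. In 56 of the 66, miR-34c replicate 1 was the highest of its group. For example, 1 probe set of OR11H12/OR11H1 read 2.04, 0.87 and 0.57 in miR-34c replicates 1 to 3 and 2.12, 1.77 and 2.23 in the scramble arrays. Without miR-34c replicate 1, 32 of the 66 were called lower and their median was -0.55. Without that array, the members called at least 1.5-fold lower went from 9 to 58, and 27 of the 58 were olfactory receptors.

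Probe sets of 1 gene gave a partial reading of which gene moved. Of the 1752 members, 713 share a symbol with a probe set that carries that symbol alone, among them 24 called higher and 45 called lower. For 8 of the 24 rises, such a probe set also rose, and for none did one fall. For 5 of the 45 falls one also fell, and for 1, the CTCFL/SP100/HMGB1 set, one rose. Of all probe sets with 1 symbol, 5.99% were called higher and 5.77% lower. These agreements are not all separate. The same probe set of RPL21P44 alone stands behind 3 of the 5 falls, and that of H2BC21 alone behind more than 1 of the rises. USP18 alone rose by 1.84 (SE 0.177, adjusted p = 0.00110), below the 3.17 of the shared set. GBP3 alone rose by 1.23, below the 1.86 of its shared set, and H2BC21 alone by 0.73, between its shared sets at 0.36 and 1.24. These differences between probe sets were not tested. TRIM16 alone rose by 0.41 and FAHD2A alone by 0.34, beside 0.60 for TRIM16L/TRIM16 and 0.53 for FAHD2B/FAHD2A. A probe set of 1 symbol can cover another stretch of the gene, and the sequences of the probes were not used here.

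**Figure D5:**
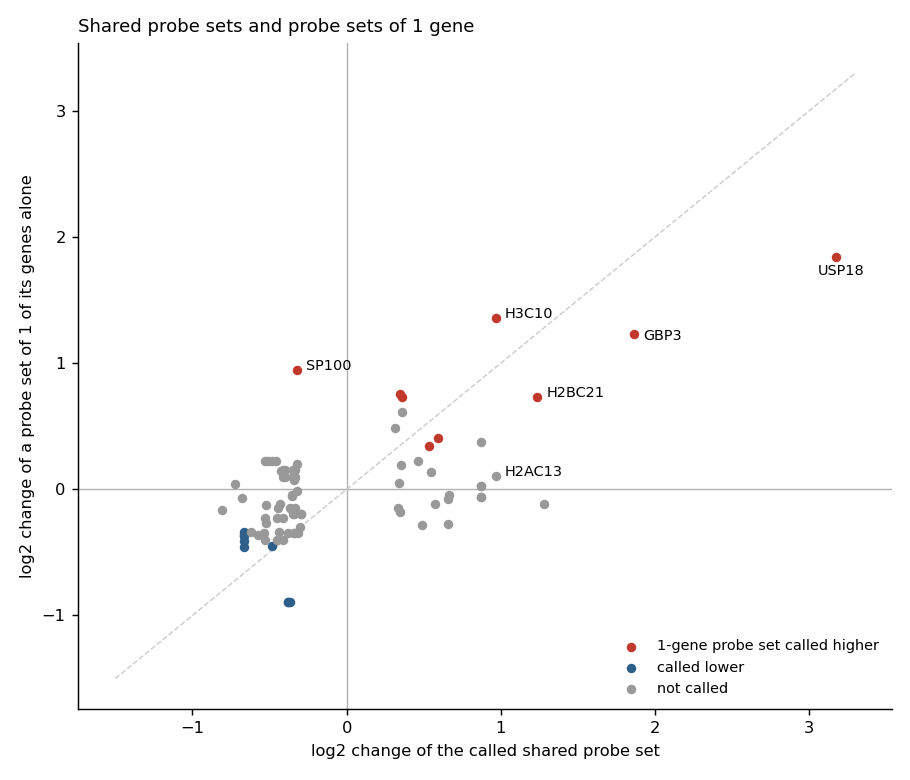
Each point pairs the log2 change of a called shared probe set (horizontal) with that of a probe set of 1 of its genes alone (vertical), coloured by the call of the latter; the dashed line marks equal change. USP18 (3.17 shared, 1.84 alone) and GBP3 (1.86, 1.23) lie below the line, H3C10 (0.97, 1.36) above it, and SP100 (-0.32, 0.95) where the signs are opposite.

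Few miR-34 family targets from the literature are measured by shared probe sets. Of 55 listed symbols, members carried 2, and neither member was called. NOTCH2NLB/NOTCH2NLA/NOTCH2, the receptor with its human-specific copies, read 0.45, 0.40 and 0.59 in the scramble arrays and 0.16, 0.23 and 0.12 with miR-34c. All miR-34c arrays were lower, yet the log2 change of -0.31 missed the threshold (adjusted p = 0.0533), while NOTCH2 alone fell by 0.61 (adjusted p = 0.00778). EBF1/PDGFRB changed by -0.03. The lists of published miR-205 targets (28 symbols), p53 targets (27) and immediate early genes (32) have no symbol on a shared probe set.

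Repeated probe sets limit how much independent evidence the counts hold. The 1752 members carry 1005 distinct sets of symbols, and 342 members have the same 6 values as another member. Counted once per set of values, there were 64 rises and 105 falls. Of 364 symbol sets on more than 1 member, 287 have differing values, and none of these held calls in both directions. Over the members, correlations ran from 0.749 to 0.925 between arrays of the same group and from 0.641 to 0.835 between groups. Leukocyte markers were not called on probe sets of 1 symbol (0 of 9), nor were fibroblast (0 of 6) or prostate luminal markers (0 of 3). Of 7 endothelial probe sets 1 fell, and of 8 epithelial ones 1 rose. The values are centred per probe set, so levels could not be used to check the identity of the cells.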

How the data were processed

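RNA of 6 PC3 samples was measured on whole-transcript Affymetrix arrays, 3 per group. Per the submitters' processing notes, the authors used RMA and Affymetrix Expression Console (version not given). The deposited log2 values lie around 0, so a reference that the sources used here do not describe was subtracted from each probe set. It cancels in differences between groups, but levels of different probe sets cannot be compared and dim probe sets cannot be set aside. No source used here names a genome build for the array.

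Members were taken from the platform annotation, and 1723 of 1752 had every symbol in the RefSeq gene table (GRCh38.p14), which was used for gene types, synonyms and which genes neighbour each other. limma (version 3.58.1, R 4.3.3) was fitted on the deposited log2 values of all 28868 probe sets with the group as the only term, without a variance trend since centred values hold no brightness, and adjusted by Benjamini-Hochberg. It was tested on simulated data. "Called" means an adjusted p under 0.05, and folds are log2 changes turned back to the linear scale. Promoter identity is from a global alignment. The alternatives were a replicate block, a variance trend, a robust prior, centred or requantiled arrays, array weights, probe sets with a symbol only, updated symbols, equal values counted once, and each array left out.

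Named members are the 10 largest rises and falls among called members whose groups do not overlap, up to 3 called of each class and family of at least 5 members, up to 6 of each list, and the member with the most symbols. Others were chosen after their values were seen. The members and lists were chosen with earlier results of these data known. The labels do not state that same-numbered arrays of the 2 groups are pairs, so the numbers were not taken as pairs. Deviations of same-numbered arrays correlated at 0.0064, 0.111 and -0.0960 over all probe sets, and at 0.0476, 0.259 and -0.307 over members. Unlike-numbered arrays ran from -0.376 to 0.379 over members. With 3 arrays per group, these values cannot settle whether the arrays are paired.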

Additional observations from a re-analysis of the deposited data

How the results depend on the processing

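Of 52 named members that were called, 29 were called in every setting and with any array left out, 23 lost the call when some array was left out, and none turned its direction. With 1 array left out, called members ran from 60 to 193, rises from 38 to 66, falls from 22 to 137, rises of at least 1.5-fold from 31 to 40 and falls of at least 1.5-fold from 7 to 58. The HLA rises stayed at 6, histone rises ran from 11 to 14 and rises with an interferon-stimulated symbol from 8 to 9. Falls ran from 2 to 5 for small nucleolar RNAs, 1 to 4 for microRNAs, 1 to 8 for ribosomal proteins and 0 to 32 for olfactory receptors, whose rises ran from 0 to 2.

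By kind of sharing and with 1 array left out, rises and falls ran from 8 to 15 and 8 to 49 for pseudogenes, 19 to 23 and 0 to 52 for related protein-coding genes, 5 to 12 and 3 to 10 for read-through loci, 4 to 9 and 2 to 9 for unlike symbols, 0 to 5 and 4 to 15 for long noncoding loci, and 1 to 6 and 4 to 7 for small RNA genes with a host. Copies of a small RNA gene had 0 to 2 falls and 0 rises.

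With the replicate block, 113 members were called, with 61 falls, although the labels do not state that the numbers pair the arrays. In that fit falls were 26 for pseudogenes, 10 for related genes, 8 for read-through loci, 3 for unlike symbols (with 6 rises), 3 for small nucleolar RNAs and 0 for small RNA copies, and rises were 1 for long noncoding loci and 0 for olfactory receptors. A variance trend gave falls of 31 for pseudogenes, 3 for small nucleolar RNAs, 5 for ribosomal proteins and 0 for small RNA copies, and 2 long noncoding rises. Centred arrays gave rises of 17 for unlike symbols, 5 for small RNAs with a host, 2 for small RNA copies and 3 for olfactory receptors. Another quantile normalization gave 110 rises: 25 for read-through loci, 19 for unlike symbols, 6 for small RNAs with a host, 9 for small RNA copies and 10 for olfactory receptors among them. Array weights gave 14 falls of at least 1.5-fold, 17 rises for unlike symbols, and 2 rises and 1 fall of olfactory receptors. With symbol-bearing probe sets only, small RNA copies had 2 rises. The cause of these moves was not tested.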
